A study of Mus musculus with 23 samples.

Results

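The genes followed here are 7 leukocyte integrin genes and a gene that lies among them. They are the 4 alpha chains of the beta-2 integrins (Itgad, Itgam, Itgax and Itgal), the beta chain they share (Itgb2), the alpha chain Itga4, the beta chain Itgb7, and Cox6a2, which lies inside the annotated span of Itgad on the opposite strand. They were chosen by symbol and make up 8 of the 26139 gene identifiers in the 2 tables of the series. All 8 passed the filter on low values in both tables, and Itgam had a further row in the table of 25700 genes. The series is RNA sequencing of macrophages from C57BL/6 mice, 1000 cells to a library taken by flow cytometry, and its title asks about the need for PPARγ in red pulp macrophages of the spleen and in the erythroblastic island macrophages of the marrow. One table of 12 libraries held day-7 pups: vavCre spleen (RPM_d7_vavCre, n = 3) with WT spleen (RPM_d7_WT, n = 3), and vavCre marrow (BMM_d7_vavCre, n = 3) with WT marrow (BMM_d7_WT, n = 3). The other table of 11 libraries held adult spleen labelled TAM_CreERT2 (RPM_TAM_CreERT2, n = 4) with adult WT (RPM_TAM_WT, n = 2), and day-7 spleen labelled Spic_KO (RPM_d7_Spic_KO, n = 2) with Spic_WT (RPM_d7_Spic_WT, n = 3). Vav-Cre transgenes drive Cre in blood-forming cells and their progeny, and CreERT2 is a Cre that acts once tamoxifen is given. The titles of both adult groups carry TAM. The labels name neither the floxed gene, nor the promoter behind CreERT2, nor what TAM means for the WT animals. They do not say whether replicates were separate animals, so p-values measure the spread between these libraries, which may be technical.

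Integrins are adhesion receptors made of 1 alpha and 1 beta chain, and a chain reaches the cell surface only when paired. The beta-2 chain, CD18, pairs with CD11a (Itgal) to form LFA-1, the receptor for ICAMs, with CD11b (Itgam) to form Mac-1 or complement receptor 3, with CD11c (Itgax) and with CD11d (Itgad). CD11d is known from red pulp macrophages of the spleen, and it binds VCAM-1. Itga4 pairs with Itgb1 to form VLA-4, which binds VCAM-1 and holds erythroblasts to the central macrophage of an erythroblastic island, or with Itgb7, a gut-homing receptor of lymphocytes. Cox6a2 encodes the heart and muscle form of a subunit of cytochrome c oxidase, the last enzyme of the respiratory chain.

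Itgad (chr7:128154376-128223816, plus strand, GRCm38), Itgax (chr7:128129547-128150657) and Itgam (chr7:128062640-128118491) follow each other on chromosome 7, and Itgal (chr7:127296260-127335138) lies before them at a lower coordinate. All 4 are on the plus strand, and their identifiers are ENSMUSG00000070369 (Itgad), ENSMUSG00000030789 (Itgax), ENSMUSG00000030786 (Itgam) and ENSMUSG00000030830 (Itgal). Itgb2 (chr10:77530252-77565708), Itga4 (chr2:79255426-79333123) and Itgb7 (chr15:102215995-102231944, minus strand) lie elsewhere, with the identifiers ENSMUSG00000000290, ENSMUSG00000027009 and ENSMUSG00000001281 in that order, and Cox6a2 is ENSMUSG00000030785. The 250 bases before the start of 4 of the 8 genes were in the RefSeq table used here (GRCm38.p6): Itgam, Itgax, Itga4 and Itgb7. The windows of Itgam (chr7:128062390-128062639) and Itgax (chr7:128129300-128129549) are shown because these neighbours moved in opposite directions in vavCre spleen. Capitals mark the motifs found, and positions count back from the RefSeq start, with the base before it at -1.
Itgam: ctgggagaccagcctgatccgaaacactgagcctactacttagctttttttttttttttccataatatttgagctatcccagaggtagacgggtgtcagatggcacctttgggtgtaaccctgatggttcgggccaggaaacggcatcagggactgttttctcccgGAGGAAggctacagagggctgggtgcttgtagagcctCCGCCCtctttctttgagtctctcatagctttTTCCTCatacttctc
Itgax: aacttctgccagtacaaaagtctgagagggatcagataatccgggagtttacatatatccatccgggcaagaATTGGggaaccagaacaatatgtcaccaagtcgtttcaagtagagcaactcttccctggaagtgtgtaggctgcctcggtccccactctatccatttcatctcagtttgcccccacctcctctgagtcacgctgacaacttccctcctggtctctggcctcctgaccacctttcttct
Both strands were searched for GAGGAA (the PU box bound by PU.1 and Spi-C), AGGTCA (the core motif of nuclear receptors), a direct repeat of that core with 1 base between, TGTGGT (the RUNX motif), TATAAA (the core promoter box), the CCAAT box and GGGCGG (the GC box). The Itgam window held the PU box at -84 and, on the minus strand, at -15, and a GC box at -47. The Itgax window held a CCAAT motif on the minus strand at -178 and no other of the motifs. Neither window held AGGTCA or the direct repeat, and no motif overlapped another. Of 32851 windows of the same length, 23.3% held the PU box, 32.7% the GC box, 33.9% CCAAT, 14.0% AGGTCA and 0.0335% the direct repeat, so a match describes these letters and no more.

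Values are normalised read counts, each library scaled by the authors, and they compare within a table only. Recovered reads per library ranged from 4262479 to 21744201 among the day-7 vavCre and WT libraries and from 692903 to 6289369 among the remaining 11, lowest in RPM_TAM_CreERT2 (692903 to 1668716). Libraries were less alike in some groups. The 2 Spic_KO libraries correlated with each other at r = 0.710 across genes, against 0.916 to 0.946 among Spic_WT libraries. The 2 adult WT libraries correlated at 0.805, and TAM_CreERT2 replicate 2 at 0.747 to 0.771 with its group. With 2 libraries in a group, such a value does not tell which of them differs. Red pulp macrophage markers were present in every group, 10 of 10. Pparg was at 2496 to 4002 in vavCre spleen and 1550 to 2124 in WT spleen, at 1813 to 2972 in vavCre marrow and 1601 to 1703 in WT marrow, and at 182 to 261 in TAM_CreERT2 and 92.3 to 168 in adult WT. Spic was at 931 to 1236 in Spic_KO and 1993 to 3110 in Spic_WT. Which part of either gene is deleted is not in the labels, so these totals check nothing about the deletion. A lower value in these bulk libraries cannot separate fewer expressing cells from less RNA per cell.

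In vavCre spleen macrophages the beta-2 alpha chains moved in different directions. Itgad, per kilobase of exon the most abundant of the 4 in WT spleen, fell by 6.35 on the log2 scale, Itgax fell by 3.20, and Itgal and Itgam rose by 2.86 and 1.89. The beta chain Itgb2 fell by 0.62, and Cox6a2 fell by 4.78. By limma on log2(value + 1), with adjusted p under 0.05 over all 15130 genes as the threshold, 6 of the 8 genes were called, 2 higher and 4 lower, where 5.52% of all genes were called in that comparison (835 genes, and 536 to 649 when 1 library was left out). The median log2 change was -0.47 over the 8 genes and -0.02 over all genes.

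Itgad had 158, 184 and 42.8 normalised reads in vavCre spleen, against 8529, 10180 and 8060 in WT spleen. The groups were far apart, and vavCre replicate 3 was the lowest library (log2 change -6.35, SE 0.91, adjusted p = 0.00158). Itgax, the CD11c chain, had 39.3, 44.1 and 7.14 in vavCre spleen, against 144, 315 and 247 in WT spleen. The same vavCre library was again the lowest, and the groups did not overlap (-3.20, SE 0.71, adjusted p = 0.00922). Itgal, the LFA-1 chain of most leukocytes, had 1629, 1388 and 1721 in vavCre spleen, against 172, 169.5 and 345 in WT spleen. Each vavCre library was above each WT library (2.86, SE 0.31, adjusted p = 5.56e-06).

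Itgam, the CD11b chain, had 90.2, 154 and 179 in vavCre spleen, against 49.6, 36.6 and 25.1 in WT spleen, again without overlap (1.89, SE 0.47, adjusted p = 0.02). Its value is uncertain, because 3450 exon bases, 68.7% of its exons, are shared with the annotated gene Gm49368. That gene had no row of its own for these libraries, and how shared reads were counted is not given. Summed neutrophil markers moved with Itgam, at 2933 to 5986 in vavCre spleen and 646 to 2776 in WT spleen. All 11 markers were above 0, and 2 of 11 were called higher (Mmp8 and Retnlg), where 5.52% of all genes were called. Their part in the Itgam result was not tested. Itgb2, the shared beta chain, had 2802, 2728 and 2594 in vavCre spleen, against 4549, 3820 and 4182 in WT spleen. The vavCre libraries lay below all WT libraries, by a small margin compared with Itgad (-0.62, SE 0.16, adjusted p = 0.0229).

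Itga4 did not pass the test in spleen (0.40, 95% interval 0.06 to 0.74, adjusted p = 0.206 by limma), with 1942, 2312 and 2370 in vavCre spleen and 1777, 1841 and 1416 in WT spleen, although these values did not overlap. Itgb7 was low and variable, at 23.3, 4.24 and 28.6 in vavCre spleen and 6.04, 40.7 and 23.3 in WT spleen, and its interval was wide (-3.19 to 2.58 on the log2 scale). Cox6a2 had 30.7, 27.98 and 11.9 in vavCre spleen, against 599, 785 and 516 in WT spleen. The groups were far apart, in the same direction as Itgad (-4.78, SE 0.46, adjusted p = 1.57e-06). Of these calls, 3 rested on few libraries: Itgb2 missed the threshold without vavCre replicate 2 or 3 or WT replicate 1 or 3 (adjusted p 0.0707, 0.0937, 0.119 and 0.0664), Itgam without vavCre replicate 2 or 3 or WT replicate 2 or 3 (0.085, 0.108, 0.0574 and 0.0882), and Itgax without vavCre replicate 3 (log2 change -2.40, 0.0562) or WT replicate 2 (0.0644). The Itgad change was -5.70 without vavCre replicate 3, and with a pseudocount of 0.1 its adjusted p was 0.0788.

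**Figure D1:**
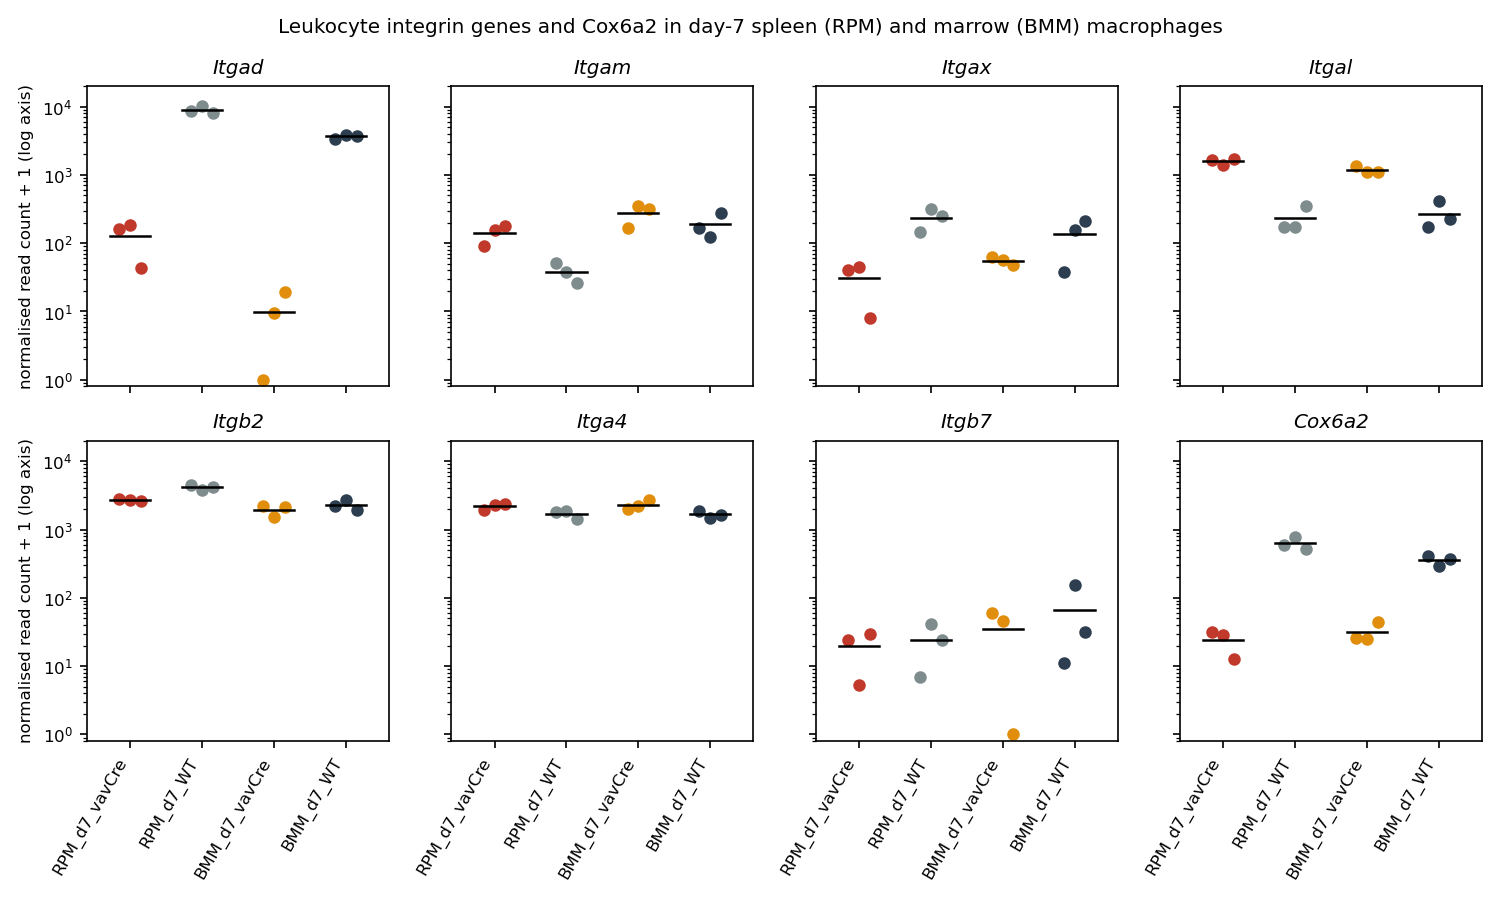
Normalised read counts plus 1 (log axis) of the 8 genes in the 12 day-7 libraries, 1 point per library with a bar at the group mean, for vavCre and WT spleen (RPM) and marrow (BMM). Itgad and Cox6a2 are lower in all vavCre libraries of both tissues, and Itgal lies at 1088 to 1721 in vavCre and 169 to 414 in WT libraries.

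In vavCre marrow macrophages Itgad was close to the detection limit, Cox6a2 fell and Itgal rose. Of the 8 genes, 3 were called, 1 higher and 2 lower, where 7.81% of all genes were called, and the median log2 change was -0.60 over the 8 genes and -0.04 over all genes. Itgad had 0, 8.48 and 18.1 normalised reads in vavCre marrow, which are 0, 7 and 8 reads, against 3378, 3891 and 3728 in WT marrow. The log2 change was -9.34 (SE 0.91, limma adjusted p = 9.44e-05), and with so few reads its size moved with the settings, from -10.5 with a pseudocount of 0.1 to -8.30 with 5. It was -8.09 without vavCre replicate 1 and -10.2 without vavCre replicate 3, and the call stood in each case.

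Itgal had 1350, 1088 and 1118 in vavCre marrow, against 169, 414 and 225 in WT marrow, with a wide gap between the groups (2.23, SE 0.31, adjusted p = 0.000101). Cox6a2 had 25.1, 24.2 and 43.0 in vavCre marrow, against 404, 296 and 366 in WT marrow (-3.52, SE 0.46, adjusted p = 5.5e-05). Both calls stood in every alternative run. The other 5 genes did not pass the test. Itgb2 changed by -0.24 (95% interval -0.58 to 0.09), with 2175, 1502 and 2166 in vavCre marrow and 2236, 2695 and 1950 in WT marrow, which overlap. Itga4 changed by 0.47 (0.13 to 0.80, adjusted p = 0.0924), Itgam by 0.58 (-0.41 to 1.56), Itgax by -0.95 (-2.45 to 0.55) and Itgb7 by -1.43 (-4.31 to 1.45).

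Itgal is an integrin chain that lymphocytes carry in abundance. Of 10 T and NK cell markers, 1 was called higher in each tissue, Cd4, and it made up most of their sum in the vavCre libraries. The median log2 change of the 10 was -1.12 in vavCre spleen and -2.19 in vavCre marrow, opposite to Cd4. Of all genes, 5.52% were called in vavCre spleen and 7.81% in vavCre marrow. The summed markers were at 2642 to 3111 in vavCre spleen and 830 to 1524 in WT spleen, and at 5235 to 7211 in vavCre marrow and 1545 to 3187 in WT marrow. Cd4 alone was at 2621 to 2966 in vavCre spleen and 683 to 776 in WT spleen, and at 5204 to 6141 in vavCre marrow and 1422 to 2393 in WT marrow. The T cell receptor partners Cd3e and Cd3d and the co-receptor Cd8a were at 0 in all vavCre marrow libraries, and the NK cell marker Ncr1 was at 0 in all vavCre spleen libraries. In spleen, Cd3e was at 0 to 13.6 in vavCre and 3.63 to 30.6 in WT libraries. The part of such cells in the Itgal result was not tested.

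No gene of the 8 passed the test of whether the vavCre effect differed between the tissues, where 0.119% of all genes were called (18, and 11 to 24 when 1 library was left out), and edgeR and DESeq2 also called none. At an unadjusted p under 0.05 there were 2: the Itgad effect was smaller in spleen than in marrow by 2.99 on the log2 scale (95% interval 0.15 to 5.82, limma adjusted p = 0.78), and the Itgax effect was more negative in spleen (difference -2.25, 95% interval -4.37 to -0.13, adjusted p = 0.78). The median difference was 0.28 over the 8 genes and 0.03 over all genes. So the calls of Itgax, Itgam and Itgb2 in spleen but not in marrow do not show that these genes responded differently in the 2 tissues.

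Among WT libraries, spleen macrophages had more Itgb2 and less Itgam than marrow macrophages, and these were the 2 genes of the 8 called, where 3.89% of all genes were called (588, and 269 to 665 when 1 library was left out). Itgb2 was 0.88 higher in spleen (SE 0.16, limma adjusted p = 0.00306) and Itgam 2.27 lower (-2.27, SE 0.47, adjusted p = 0.00876), with 25.1 to 49.6 in spleen and 123 to 273 in marrow. Neutrophil markers summed to 646 to 2776 in WT spleen and 1388 to 4485 in WT marrow, and their part in the Itgam result was not tested. The Itgam call was lost without WT spleen replicate 3 (adjusted p = 0.0508) or WT marrow replicate 3 (0.0618). Itgad averaged 8923 ± 1114 in WT spleen and 3666 ± 262 in WT marrow (SD, n = 3 each), without overlap, but its change of 1.28 had an adjusted p of 0.564 in the fit that pools the spread of all 12 libraries. In the fit of the 6 WT libraries alone the adjusted p was 1.8e-05, so this call depends on which libraries enter the fit. The median difference was 0.42 over the 8 genes and 0.02 over all genes.

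Among vavCre libraries, Itgad was the 1 gene of the 8 called between spleen and marrow, where 3.5% of all genes were called (529, and 271 to 479 when 1 library was left out), at 42.8 to 184 in spleen and 0 to 18.1 in marrow (4.26, SE 0.91, limma adjusted p = 0.029). The adjusted p was 0.143, 0.121 and 0.0757 without vavCre spleen replicate 1, vavCre spleen replicate 2 and vavCre marrow replicate 2, and the change was 3.01 without vavCre marrow replicate 1. The median difference was 0.05 over the 8 genes and 0.03 over all genes. The order of mean levels for Itgad in the first table was thus WT spleen, WT marrow, vavCre spleen and vavCre marrow, and no neighbours in that order overlapped. For Itgal the order was vavCre spleen, vavCre marrow, WT marrow and WT spleen, and the last 2 overlapped.

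**Figure D2:**
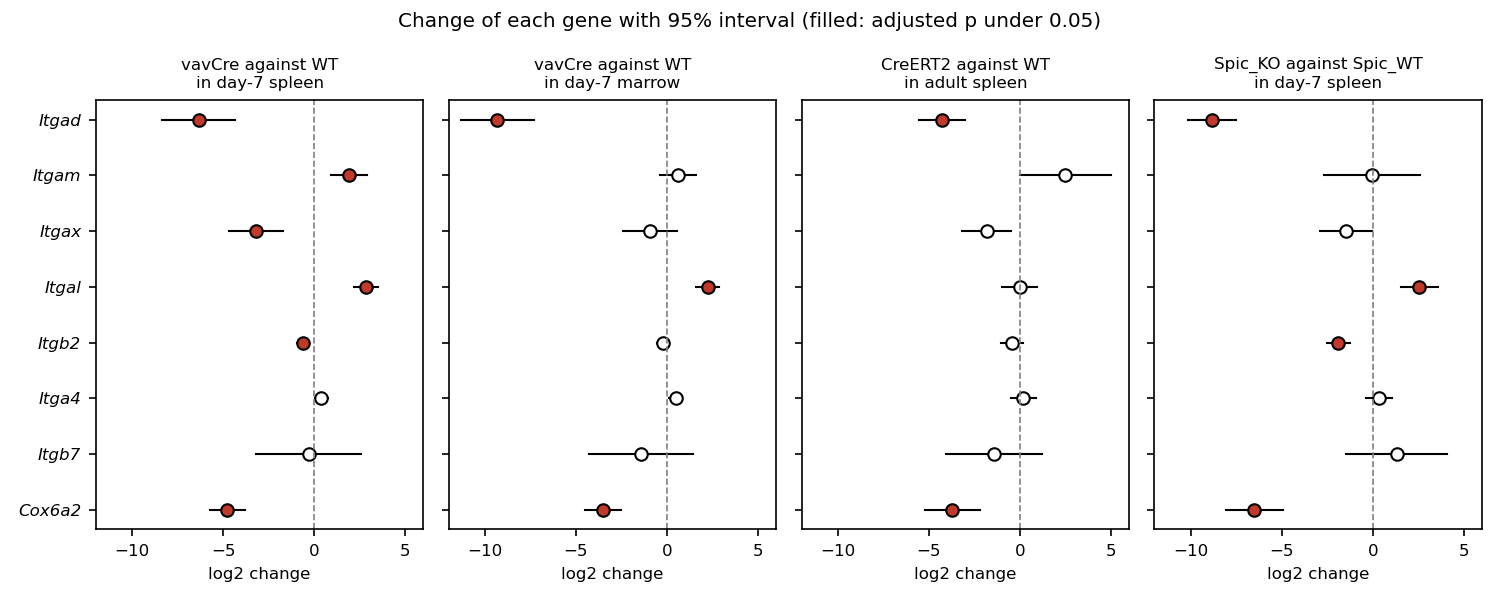
Log2 change of each gene with its 95% interval in the 4 comparisons of a changed genotype with its control, filled where the limma adjusted p was under 0.05. Itgad and Cox6a2 are filled and below 0 in all 4, between -9.34 and -3.52, and Itgal is filled and above 0 in 3 of 4.

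In adult spleen macrophages labelled TAM_CreERT2, Itgad and Cox6a2 were lower than in adult WT, and no other gene of the 8 passed the test. The 2 calls compare with 0.144% of all genes called (24, and 2 to 18 when 1 library was left out), and the median log2 change was -0.93 over the 8 genes and 0 over all 16650. Itgad had 56.8, 17.7, 173 and 71.9 normalised reads in TAM_CreERT2 replicates 1, 2, 4 and 5, against 1337 and 1080 in adult WT. The TAM_CreERT2 libraries scattered widely and all lay below WT (-4.30, SE 0.61, limma adjusted p = 0.00289). Cox6a2 had 21.6, 6.65, 33.9 and 21.8 in TAM_CreERT2, against 302 and 211 in adult WT (-3.72, SE 0.72, adjusted p = 0.0432). In both genes replicate 2, the library least like its group, was the lowest and replicate 4 the highest. The Itgad call was lost without adult WT replicate 1 (-4.15, adjusted p = 0.183) or 3 (-4.46, 0.0555), in edgeR (-3.90, 0.0864) and with a pseudocount of 0.1 (0.115), and the Cox6a2 call without any 1 library of the 6 (adjusted p 0.0637 to 0.492), without the filter on low values (0.128) and with a pseudocount of 0.1 (0.445).

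Itgal, which was called higher in vavCre and Spic_KO spleen, had 170.4, 177, 126 and 179.8 in TAM_CreERT2 and 154 and 171 in adult WT. The groups overlapped, and the log2 change was -0.01 with a 95% interval of -0.98 to 0.97. Itgb2 had 359, 262, 306 and 275 in TAM_CreERT2 and 332 and 479 in adult WT (-0.42, -1.01 to 0.18). Itgax had 59.1, 53.2, 68.7 and 21.8 in TAM_CreERT2, against 249 and 112 in adult WT. These groups did not overlap, but the change missed the threshold (-1.82, -3.16 to -0.48, adjusted p = 0.477). Itgam (2.49, -0.01 to 4.99), Itga4 (0.18, -0.51 to 0.88) and Itgb7 (-1.43, -4.05 to 1.19) did not pass either. The Itgam value is uncertain here as well, since Gm49368, which shares 68.7% of the Itgam exon bases, has its own row for these libraries. Summed T and NK cell markers were at 490 to 1042 in TAM_CreERT2 and 216 to 236 in adult WT, and neutrophil markers at 249 to 731 in TAM_CreERT2 and 118 to 1024 in adult WT, with none called.

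In Spic_KO day-7 spleen macrophages Itgad and Cox6a2 were close to 0, Itgb2 fell and Itgal rose. These were 4 of the 8 genes, 1 higher and 3 lower, where 3.95% of all genes were called (658, and 261 to 1972 when 1 library was left out), and the median log2 change was -0.77 over the 8 genes and 0 over all genes. Itgad had 1.00 and 6.73 normalised reads in Spic_KO, which are 2 and 13 reads, against 2089, 1468 and 1857 in Spic_WT (-8.83, SE 0.64, limma adjusted p = 4.28e-08). Cox6a2 had 0 and 6.73 in Spic_KO, against 257, 231 and 269.6 in Spic_WT (-6.51, SE 0.76, adjusted p = 3.09e-05). Both groups of both genes were separated by a wide gap. Itgb2 had 118 and 149 in Spic_KO, against 565, 406 and 519.8 in Spic_WT (-1.89, SE 0.30, adjusted p = 0.000819).

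Itgal had 126 and 366 in Spic_KO, against 19.2, 38.9 and 59.6 in Spic_WT, so the groups did not overlap while the Spic_KO libraries differed from each other (2.56, SE 0.49, limma adjusted p = 0.00401). The 2 Spic_KO libraries set much of these sizes. Without Spic_KO replicate 1 the change was -7.85 for Itgad, -5.03 for Cox6a2 and 3.33 for Itgal, and without replicate 2 it was -9.80, -7.98 and 1.80, where Itgal missed the threshold (adjusted p = 0.109), as it did in the fit of these groups alone (adjusted p = 0.0553). Itgax had 7.51 and 24.8 in Spic_KO and 55.9, 21.4 and 55.0 in Spic_WT, which overlap (-1.48, 95% interval -2.90 to -0.07, adjusted p = 0.244). Itga4 (0.35, -0.39 to 1.08), Itgam (-0.05, -2.69 to 2.59) and Itgb7 (1.31, -1.45 to 4.08) did not pass the test. The further Itgam row, the identifier of Gm49368, held 0 to 2.80 in all 5 libraries. Exons shared by Itgam and Gm49368 leave both values uncertain.

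Single markers of other cell types moved with these groups as well, where 3.95% of all genes were called. Summed dendritic cell markers were at 2025 to 2215 in Spic_KO and 120 to 323 in Spic_WT, with 1 of 8 called higher (H2-Ab1), a list median of 0.60 and Cd209a at 0 in both groups. T and NK cell markers summed to 86.4 to 236 in Spic_KO and 60.3 to 78.6 in Spic_WT, with 7 of 10 at 0 in both Spic_KO libraries, Cd3e, Cd3d and Ncr1 among them, and none called. Megakaryocyte and platelet markers summed to 1055 to 1548 in Spic_KO and 65.7 to 115 in Spic_WT, of which Pf4 made up 1050 to 1534 in Spic_KO and 50.3 to 105 in Spic_WT. Pf4 was the 1 of 6 called (4.12), the list's median was -0.44, and Ppbp was at 0 in Spic_KO. The part of these cells in the Itgad, Itgb2 and Itgal results was not tested.

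**Figure D3:**
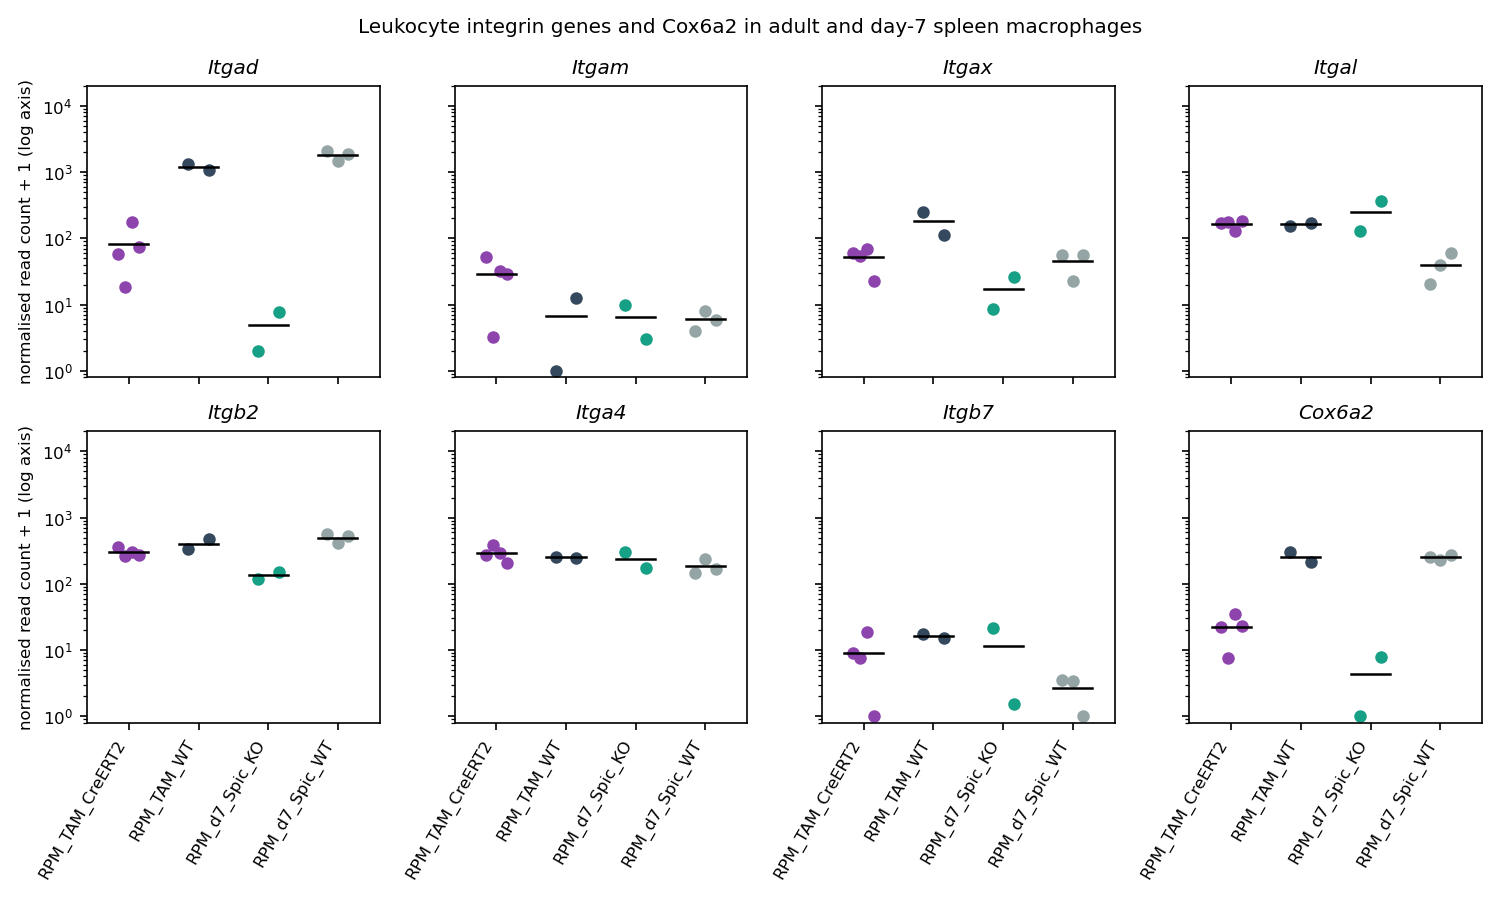
Normalised read counts plus 1 (log axis) of the 8 genes in the 11 libraries of the other table, 1 point per library with a bar at the group mean, for adult spleen (TAM_CreERT2 and WT) and day-7 spleen (Spic_KO and Spic_WT). Itgad is at 1.00 to 173 in the changed genotypes and 1080 to 2089 in both controls, and Itgal is lowest in Spic_WT.

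Between the controls of that table, adult WT macrophages had more Itgal than day-7 Spic_WT macrophages, with 154 and 171 against 19.2, 38.9 and 59.6 (2.16, SE 0.49, limma adjusted p = 0.016). It was the 1 gene of the 8 called, where 3.42% of all genes were called (569, and 44 to 727 when 1 library was left out), and the median difference was 0.24 over the 8 genes and 0 over all genes. The call was lost without adult WT replicate 1 (adjusted p = 0.208) or 3 (0.0766) or Spic_WT replicate 1 (0.0888). The T cell marker Cd3e was higher as well (3.87, limma adjusted p = 0.0467), at 12.7 to 23.7 in adult WT and 0 to 0.971 in Spic_WT. It was the 1 called of 9 T and NK cell markers tested (list median 1.40). Of other markers, 3 of 7 for B cells were called higher (1.76). So were 2 of 8 for dendritic cells (2.89), 2 of 7 for monocytes (2.44) and 1 of 10 erythroid markers (-0.49). Called lower were 2 of 10 red pulp macrophage, 1 of 7 eosinophil and mast cell and 1 of 6 megakaryocyte and platelet markers. The part of such cells in the results of this comparison was not tested. Itgax was 2.02 higher in adult WT without passing (95% interval 0.61 to 3.44, adjusted p = 0.118), and it passed in edgeR (0.0433) and DESeq2 (0.0179). Itgad did not differ beyond the threshold, with 1337 and 1080 in adult WT and 2089, 1468 and 1857 in Spic_WT (-0.57, -1.91 to 0.76), nor did Cox6a2 (0.00, -1.58 to 1.58). Age, the TAM label and any difference in preparation cannot be told apart here. This comparison shares its controls with the CreERT2 and Spic_KO comparisons, as the tissue comparisons share theirs with the vavCre ones.

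Values per kilobase of exon set genes side by side only roughly, since coverage along the transcripts was not checked. On that scale Itgad supplied most alpha chain transcript of the beta-2 family in control macrophages. Itgal had the largest mean share in each changed genotype. Of the summed per-kilobase values of Itgad, Itgal, Itgam and Itgax, Itgad made up 11.3, 14.0 and 3.08% in vavCre spleen, against 96.6, 95.8 and 94.2% in WT spleen. In marrow it made up 0, 0.755 and 1.63% in vavCre, against 91.9, 87.8 and 86.2% in WT. The share was 20.6, 9.26, 49.2 and 29.8% in TAM_CreERT2, against 79.7 and 82.2% in adult WT, and 0.974 and 2.37% in Spic_KO, against 96.8, 96.5 and 95.04% in Spic_WT. No pair of groups overlapped, and TAM_CreERT2 had the largest mean Itgad share of the changed genotypes, 27.2%.

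The Itgal share averaged 79.2% in vavCre spleen and 1.73% in WT spleen, 72.4% in vavCre marrow and 4.38% in WT marrow, 45.5% in TAM_CreERT2 and 7.63% in adult WT, and 86.5% in Spic_KO and 1.49% in Spic_WT. In TAM_CreERT2 this came with an Itgal level like that of adult WT, 24.9 against 24.8 per kilobase, so there the share differed while the level of Itgal did not pass the test. Itgam made up 22.2% in vavCre marrow and 4.06% in WT marrow, its largest mean share. Itgax made up 18.3% in TAM_CreERT2 and 10.98% in adult WT, its largest mean shares.

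The sum of the 4 alpha chains was lower in each changed genotype, at a mean of 303 per kilobase in vavCre spleen and 2070 in WT spleen, 249 in vavCre marrow and 919 in WT marrow, 58.7 in TAM_CreERT2 and 331 in adult WT, and 42.8 in Spic_KO and 416 in Spic_WT. Set against Itgb2 per kilobase, the alpha sum was 0.342 ± 0.019 times the beta chain in vavCre spleen and 1.53 ± 0.31 in WT spleen (SD, n = 3 each). The ratio was 0.402 ± 0.090 in vavCre marrow and 1.24 ± 0.22 in WT marrow, 0.597 ± 0.129 in TAM_CreERT2 and 2.64 ± 1.11 in adult WT, and 0.939 ± 0.492 in Spic_KO and 2.55 ± 0.03 in Spic_WT. The mean ratio was thus below 1 in all 4 changed genotypes and above 1 in all 4 controls, and 1 Spic_KO library stood at 1.29. The value 1 has no meaning of its own here, because per-kilobase values of different genes were not calibrated. Itgad made up most of the alpha sum in controls, so the ratio is not independent of the Itgad fall. For the Itgad share, the Itgal share, the alpha sum and this ratio, 16 comparisons in all, the exact two-sided permutation p was the smallest each design allows: 0.1 for 3 against 3 libraries, 0.133 for 4 against 2 and 0.2 for 2 against 3 (0.178, 0.178 and 0.2 after Benjamini-Hochberg adjustment), so none could reach 0.05.

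**Figure D4:**
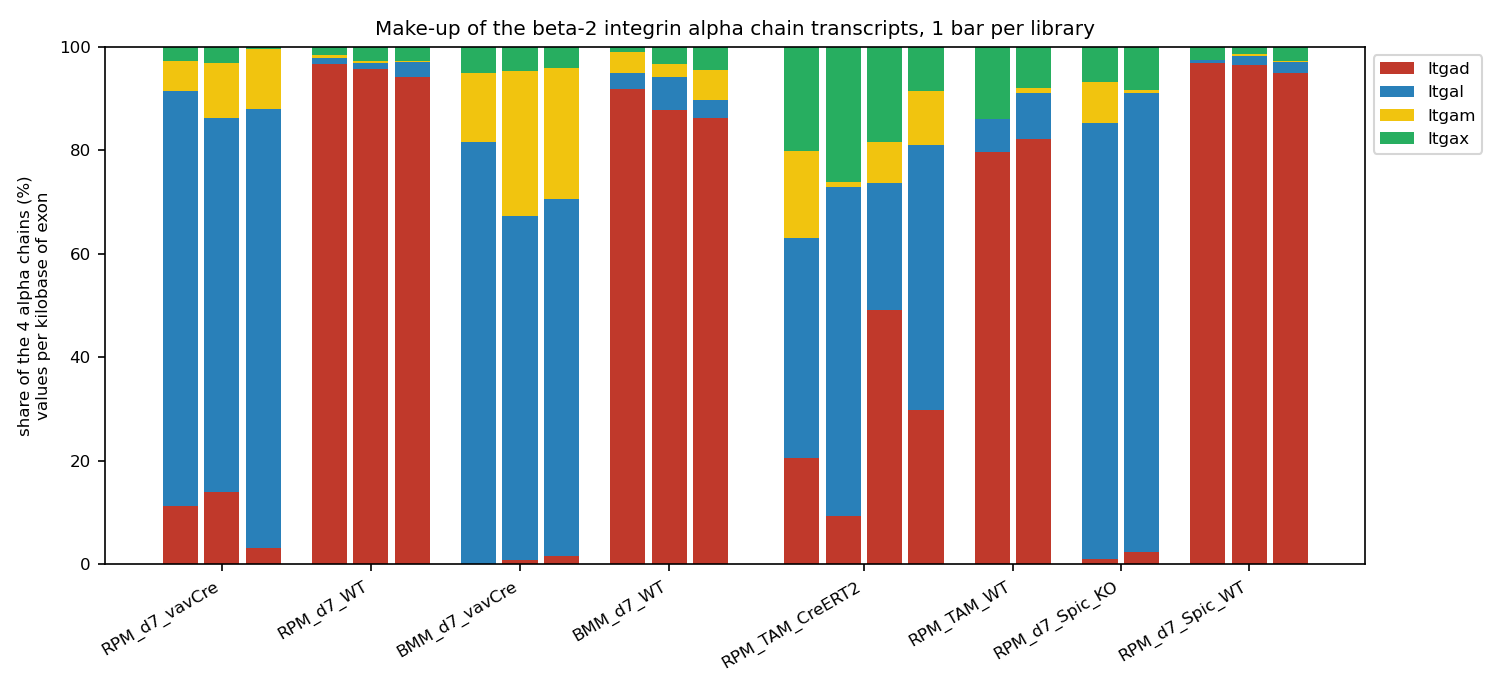
Share of Itgad, Itgal, Itgam and Itgax in their summed value per kilobase of exon (%), 1 bar per library, groups in the order vavCre and WT spleen, vavCre and WT marrow, TAM_CreERT2 and adult WT, Spic_KO and Spic_WT. Itgad fills 79.7 to 96.8% of each control bar and 0 to 49.2% of each bar of a changed genotype, where Itgal fills 24.6 to 88.7%.

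Cox6a2 (chr7:128205435-128206387, minus strand) lies within the annotated span of Itgad. The 2 genes share 70 exon bases (chr7:128205435-128205504), 10.3% of the Cox6a2 exons and 1.55% of those of Itgad. Whether reads were counted by strand is not given, so reads there cannot be told apart. The other Cox6a2 exon bases lie within the span of Itgad but outside its exons. Without strand, reads from unspliced Itgad RNA there could be counted as Cox6a2, and their part in the Cox6a2 results was not tested. As normalised read counts, without a correction for length, the Cox6a2 value was 19.5, 15.2 and 27.8% of the Itgad value in vavCre spleen, against 7.02, 7.71 and 6.40% in WT spleen. In marrow it was 286 and 237% in vavCre replicates 2 and 3, while replicate 1 held Cox6a2 at 25.1 with Itgad at 0, against 12.0, 7.61 and 9.81% in WT. It was 38.0, 37.5, 19.6 and 30.4% in TAM_CreERT2, against 22.6 and 19.5% in adult WT, and 0 and 100% in Spic_KO, against 12.3, 15.7 and 14.5% in Spic_WT. Per kilobase of exon, Cox6a2 was 129, 101 and 184% of Itgad in vavCre spleen, against 46.6, 51.2 and 42.4% in WT spleen. In marrow it was 1895 and 1575% in vavCre replicates 2 and 3, against 79.4, 50.5 and 65.1% in WT. It was 252, 249, 129.8 and 201% in TAM_CreERT2, against 149.9 and 129.5% in adult WT, and 0 and 663% in Spic_KO, against 81.6, 104 and 96.3% in Spic_WT. Per kilobase, a rough scale between genes, Cox6a2 was thus below Itgad in all WT spleen and WT marrow libraries of day 7. It was above Itgad in both adult WT libraries and in 1 of 3 Spic_WT libraries. The percentage in TAM_CreERT2 overlapped that in adult WT.

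**Figure D5:**
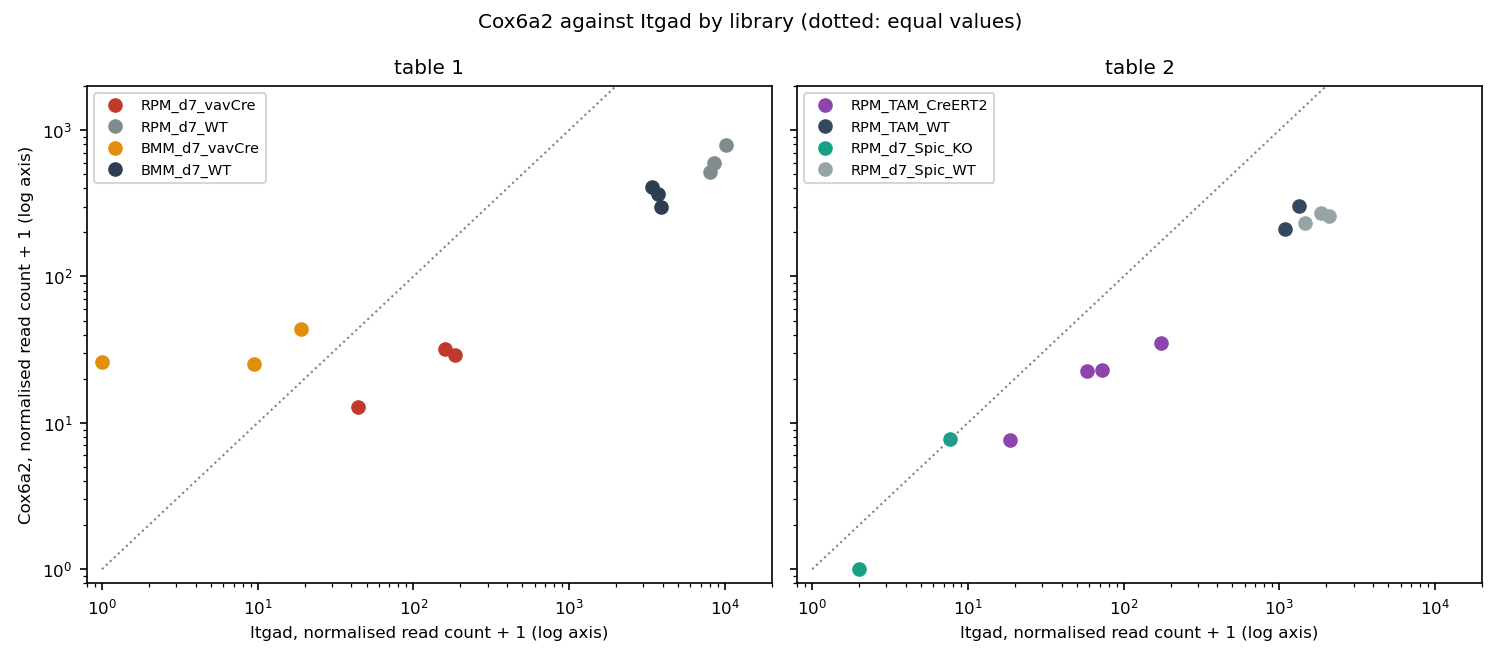
Cox6a2 against Itgad, both as normalised read counts plus 1 on log axes, 1 point per library, with vavCre and WT libraries of day-7 spleen and marrow on the left and the other table on the right. Control libraries lie at the upper right of both panels, and the vavCre marrow points, with Cox6a2 at 24.2 to 43.0, lie above the dotted line of equal normalised read counts, which carries no correction for exon length.

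The neighbours of Itgad did not move as a block. Of the 5 nearest annotated genes on each side that a table listed, 8 were tested in the first table. In vavCre spleen 3 were called, where 5.52% of all genes were. These were Itgax, Itgam and Cox6a2, in different directions, and all belong to the 8 genes followed here. In vavCre marrow 3 were called, where 7.81% of all genes were: Cox6a2, Armc5 (1.04, limma adjusted p = 0.0466) and Tgfb1i1 (-4.11, adjusted p = 0.0262). Tgfb1i1 was at 0 to 10.9 in vavCre marrow and 47.0 to 66.4 in WT marrow. In the other table, 9 neighbours were tested and Cox6a2 was the 1 called in both TAM_CreERT2 and Spic_KO. Of all genes, 0.144% and 3.95% were called there. Slc5a2, a glucose carrier, was at 0 in both Spic_KO libraries and 11.2 to 17.7 in Spic_WT, short of the threshold (adjusted p = 0.0538). Between the controls, where 3.42% of all genes were called, Gm45205 was the 1 neighbour called. It was lower in adult WT (16.3 to 36.9) than in Spic_WT (248 to 301).

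Among 8856 genes compared over the 8 groups, the profile closest to that of Itgad was that of Vstm4. Its root mean square difference was 1.02 on the log2 scale, between group means centred within a table. The median gene was at 3.91, and a gene with no change between groups would be at 3.91 as well. Next came Ubd (1.58), Mpzl1 (1.64), Pik3ip1 (1.79), Cox6a2 (1.86), Dgki (1.89), Slc7a2 (1.93) and Col14a1 (1.94). Of these 8 genes Cox6a2 is the 1 on chromosome 7, and 6 of the 8 came out again when libraries stood in for group means. Vstm4, a membrane protein of the immunoglobulin family, had 13.6 to 28.6 in vavCre spleen, against 956 to 1140 in WT spleen, and 0 to 9.05 in vavCre marrow, against 569 to 930.2 in WT marrow. In the other table it had 17.7 to 61.3 in TAM_CreERT2, against 110.3 to 191 in adult WT, and 0 to 4.66 in Spic_KO, against 165 to 223 in Spic_WT. In adult spleen its change of -2.09 missed the threshold (limma adjusted p = 0.41). That of Itgad (-4.30) passed by limma but not in edgeR (adjusted p = 0.0864). Whether the changes of Vstm4 and Itgad differ was not tested.

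Of 19 other alpha and beta chains, 2 rose and none fell in vavCre spleen, where 5.52% of all genes were called: the laminin receptor chain Itga6 (1.71, limma adjusted p = 0.0208), with 219 to 331 in vavCre and 65.9 to 137 in WT spleen, and the fibronectin receptor chain Itga5 (1.68, 0.0318), with 126 to 180.1 in vavCre and 31.9 to 58.6 in WT spleen. In vavCre marrow none rose and 2 fell: the collagen receptor chain Itga1 (-4.37, 0.0136), with 0 to 6.79 in vavCre and 14.0 to 82.5 in WT marrow, and Itgav (-0.79, 0.0156). In Spic_KO 1 of 17 tested rose, Itgb4 (3.22, 0.0354), with 5.01 and 13.5 in Spic_KO and 0 in all Spic_WT libraries. In TAM_CreERT2 none of 17 passed, and the 2 most abundant, Itgb5 and Itgb1, changed by 0.55 and -0.14. Megakaryocyte and platelet markers summed to 9253 to 14306 in vavCre spleen and 695 to 946 in WT spleen, and to 15909 to 17884 in vavCre marrow and 2645 to 4148 in WT marrow. Pf4 carried these sums, at 9144 to 14120 in vavCre spleen and 487 to 590.0 in WT spleen (4.396), and was called higher in marrow too (2.34). The median log2 change of the 6 markers was -1.12 in spleen and -1.76 in marrow, where Gp9 was called lower (-4.18, adjusted p = 0.038). The part of such cells in these results was not tested. Itgb1, the other partner of Itga4, was at 3444 to 4547 in vavCre spleen and 3263 to 3675 in WT spleen. Between tissues Itga9, which binds VCAM-1, was higher in spleen than in marrow in WT (0.75) and vavCre (0.67), Itga6 was lower in WT spleen (-1.58), and Itgav was higher in vavCre spleen (0.72). Of all genes, 7.81% were called in vavCre marrow, 0.144% in TAM_CreERT2, 3.95% in Spic_KO, 3.89% between WT tissues and 3.5% between vavCre tissues. The median log2 change of the list was -0.07, 0.10, -0.32 and 0.38 in vavCre spleen, vavCre marrow, TAM_CreERT2 and Spic_KO, against -0.02, -0.04, 0 and 0 over all genes. None differed between adult and day-7 controls, and the tissue difference of the vavCre effect passed in none.

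Of the integrin ligand genes, 12 were tested in Spic_KO, where none rose and 3 fell: Vcam1, the ligand of VLA-4 and CD11d (-1.49, limma adjusted p = 3.72e-05), with 2498 and 2933 in Spic_KO and 7268 to 8022 in Spic_WT, F11r (-3.02, 0.000461), a junctional ligand of LFA-1, and C3 (-3.25, 0.0272), whose fragment binds Mac-1. In vavCre spleen 1 of 14 rose and 2 fell: C3 rose (1.44, 0.03) and Vcam1 (-0.78, 1.56e-05) and F11r (-1.80, 0.00254) fell. In vavCre marrow 1 rose and 2 fell: Icam1, the main ligand of LFA-1, rose (0.70, 0.011), and Vcam1 (-1.88, 3.63e-10) and Icam4 (-2.71, 0.0161) fell. Vcam1 was the 1 ligand whose vavCre effect differed between tissues (1.10, adjusted p = 0.000584), at 32840 to 36170 in vavCre spleen and 56220 to 64210 in WT spleen, and 13580 to 15970 in vavCre marrow and 46330 to 58170 in WT marrow. None of 12 passed in TAM_CreERT2, where Vcam1 changed by 0.20 and Icam1 by -0.58, nor between the adult and day-7 controls. Between tissues F11r was higher (1.41) and C3 lower (-1.51) in WT spleen, and Vcam1 (1.27) and Cyr61 (4.50) were higher in vavCre spleen. The list's median was 0.05, -0.93, -0.04 and -1.14 in vavCre spleen, vavCre marrow, TAM_CreERT2 and Spic_KO, against -0.02, -0.04, 0 and 0 over all genes. The shares of all genes called in these 4 were 5.52, 7.81, 0.144 and 3.95%. They were 0.119% for the difference of the vavCre effects, 3.89% between WT tissues and 3.5% between vavCre tissues.

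Of 19 genes for integrin activation and adaptors, 1 rose and 2 fell in vavCre spleen: Rap1a, a GTPase that switches integrins to the binding state (0.64, limma adjusted p = 0.00428), and Flna, which links beta chains to actin (-1.01, 0.000512), and Filip1l (-0.65, 0.0122). In vavCre marrow 4 rose and 4 fell, among them Rap1a (0.77) and Fyb (0.70) upwards and Rasgrp2, the exchange factor that loads Rap1 (-1.37, 7.92e-05), and Cytip (-2.54) downwards. In Spic_KO none of 20 rose and 1 fell (Filip1l, -1.69), in TAM_CreERT2 none passed (Rap1b -0.16, Fyb 0.34), and Rasgrp2 was lower in adult than in day-7 controls (-1.56, 0.047). In WT spleen against marrow 3 were higher (Filip1l 0.62, Fyb 0.50 and Flna 0.60), as were 3 in vavCre (Cytip 3.06, Rasgrp2 1.27 and Filip1l 0.67). The list's median was 0.06, 0.08, -0.04 and 0.03 in vavCre spleen, vavCre marrow, TAM_CreERT2 and Spic_KO, against -0.02, -0.04, 0 and 0 over all genes. The shares of all genes called in these 4 were 5.52, 7.81, 0.144 and 3.95%. They were 3.89% between WT tissues, 3.5% between vavCre tissues and 3.42% between the controls.

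Of 26 genes for signalling below integrins, 4 rose and 2 fell in vavCre spleen and 2 rose and 3 fell in vavCre marrow. The Src family kinase Fgr, which acts below beta-2 integrins in myeloid cells, fell by 2.91 in spleen and fell by 2.13 in marrow (limma adjusted p = 1.48e-06 and 5.51e-05), with 175 to 239 in vavCre and 1589 to 1626 in WT spleen. Fyn, of the same family, fell by 1.62 in spleen and fell by 3.65 in marrow (adjusted p = 0.000985 and 7.21e-08), with 58.6 to 154 in vavCre and 1098 to 1451 in WT marrow. Tyrobp (0.55) and Rac2 (0.69) rose in spleen, and in marrow Fcer1g rose (0.35) and Parvg fell (-0.70). In Spic_KO Ptk2, the focal adhesion kinase, fell (-2.92, 0.0121), with 2.50 and 11.9 in Spic_KO and 45.0 to 58.2 in Spic_WT, and its relative Ptk2b rose (1.28, 0.0479). Fgr was at 209.5 and 249 in Spic_KO and 253 to 271 in Spic_WT. None of 26 passed in TAM_CreERT2 (Fcer1g 0.08, Tyrobp -0.66), and 2 were higher and 1 lower in adult than in day-7 controls (Parvg 1.24, Ptk2b 1.39 and Tyrobp -1.90). Between tissues 3 were higher and 1 lower in WT spleen (Lcp2 0.63, Lyn 0.51 and Src -1.86 among them), and 5 were higher and 1 lower in vavCre spleen (Fyn 2.51, Lyn 0.59, Tyrobp 0.33 and Src -1.87 among them). The list's median was -0.02, 0.12, -0.08 and -0.09 in vavCre spleen, vavCre marrow, TAM_CreERT2 and Spic_KO, against -0.02, -0.04, 0 and 0 over all genes. The shares of all genes called in these 4 were 5.52, 7.81, 0.144 and 3.95%. They were 3.89% between WT tissues, 3.5% between vavCre tissues and 3.42% between the controls.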

How the data were processed

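Per the labels' protocols, sorted cells were lysed, their RNA was primed with oligo-dT, and the PCR product was tagmented. The submitters' processing notes name STAR, edgeR and GRCm38, with no role or version. The unit of the deposited values is not stated in any header; the values behave as a signal, read counts that the authors divided by a factor per library, since they came out as whole reads (within 0.1 read, up to 500 reads) for 96.4 to 100% of values per library. The groups come from the labels, and every column was used. Each table was fitted whole with limma 3.58.1 (R 4.3.3; trend and robust moderation) on log2(value + 1), so that changes of low genes are understated, with group as the sole term and genes at 1 or more in at least 2 libraries, and p-values were adjusted over all genes tested by Benjamini-Hochberg; under 0.05 is a call. The script was tested on simulated data. Alternatives were no filter, a filter at 10, pseudocounts of 0.1 and 5, edgeR 4.0.16 and DESeq2 1.42.0 on the recovered reads, the compared groups alone, a replicate block and each library left out in turn. Coordinates and exon lengths are from GENCODE vM21 (GRCm38, 1-based). All 8 genes are described in every comparison; from each pathway list (other integrins, ligands, activation and adaptors, signalling) up to 4 genes past the threshold with the smallest p are named, or the 2 most abundant where none passed, and some genes of the lists are not reported here. Genes most like Itgad were ranked among those with a group mean of at least 20 in each table. The genes, lists and markers were chosen with earlier results of these data known.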

Additional observations from a re-analysis of the deposited data

How the results depend on the processing

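Of the results recomputed under the alternatives, 923 values kept their direction and side of the threshold (for counts, stayed within 1.5 times), 35 lost the call, 6 gained one, 38 changed sign and 32 counts or Cox6a2 to Itgad ratios moved by more. Itgad in vavCre marrow and in Spic_KO, and Itgal and Cox6a2 in both vavCre comparisons, were called in every alternative run. For Itgad, the pseudocount of 0.1 gave -6.37 in vavCre spleen, 5.43 between tissues in vavCre and -4.33 in CreERT2, and none of these passed the threshold, nor did 4.26 between tissues in vavCre with the compared groups alone or -3.90 in CreERT2 with edgeR. Between WT tissues its 1.28 passed with the compared groups alone and with the replicate block. Leaving out 1 library, Itgad ranged from 3.01 to 5.14 between tissues in vavCre and from -4.81 to -3.74 in CreERT2. Of the 8 genes, the called number ranged from 3 to 6 in vavCre spleen, 1 to 2 between WT tissues, 0 to 1 between vavCre tissues, 0 to 1 in CreERT2 and 0 to 1 between the controls when 1 library was left out. It was 0 between vavCre tissues with the pseudocount of 0.1 or the compared groups alone. In CreERT2 it was 1 without the filter, 0 with the pseudocount of 0.1 and 1 with edgeR. Between the controls it was 2 with edgeR, DESeq2, the compared groups alone and the replicate block. The cause of these shifts was not tested.

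Signs turned in values that did not pass the test. With other tools or settings these were Itga4 between WT tissues (-0.0092 with DESeq2), Itgb7 between vavCre tissues (-0.28 with the pseudocount of 5, -0.88 with edgeR and -0.90 with DESeq2), Itgam in Spic_KO (0.018, 0.17 and 0.22 with the same 3), Itgal in CreERT2 (0.024 with DESeq2), Cox6a2 between the controls (-0.060 with the replicate block) and Itgam there (0.32 with edgeR and 0.37 with DESeq2). With 1 library left out, Itgb7 ranged from -1.03 to 0.48 in vavCre spleen, -2.48 to 0.47 in vavCre marrow, -0.78 to 2.17 for the difference of these, -1.85 to 0.049 between WT tissues, -1.75 to 1.2002 between vavCre tissues and -0.60 to 3.23 in Spic_KO. Itga4 ranged from -0.18 to 0.057 for the difference, -0.073 to 0.13 between WT tissues, -0.16 to 0.067 between vavCre tissues and -0.043 to 0.74 in Spic_KO. Itgal ranged from -0.55 to 0.15 between WT tissues and -0.080 to 0.11 in CreERT2, Itgam from -0.90 to 0.80 in Spic_KO and -2.52 to 1.13 between the controls, and Cox6a2 from -0.26 to 0.26 there.

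The number of all genes called was 835 in vavCre spleen, against 1290 with DESeq2, 1367 with the compared groups alone and 1260 with the replicate block, and 1182 in vavCre marrow, against 742 with the compared groups alone. For the difference of the effects it was 18, against 11 without the filter, 31 with edgeR and 101 with DESeq2 (73 higher and 28 lower, where 17 and 1 were called by limma). Between WT tissues it was 588, against 966 with DESeq2, and between vavCre tissues 529, against 963 (592 higher and 371 lower, where 405 and 124 were called). In Spic_KO it was 658 (245 higher and 413 lower), against 949 with edgeR (554 and 395), 1737 with DESeq2 (933 and 804) and 374 with the replicate block. In CreERT2 it was 24 (10 higher and 14 lower), against 5 without the filter, 14 and 9 with pseudocounts of 0.1 and 5, 29 with edgeR (8 and 21), 137 with DESeq2, where the median of all genes moved to 0.11, and 37 with the compared groups alone. Between the controls it was 569 (260 higher and 309 lower), against 1269 with DESeq2 (760 and 509), 1637 with the compared groups alone and 1468 with the replicate block. Leaving out 1 library moved these totals by more than 1.5 times in the following cases. In vavCre spleen the total was 536 without vavCre spleen replicate 2 and 555 without WT spleen replicate 2. For the difference of the effects it was 11 without WT spleen replicate 1 or vavCre marrow replicate 1. Between WT tissues it was 333 and 269 without WT spleen replicates 1 and 3, and 305 and 315 without WT marrow replicates 1 and 3. Between vavCre tissues it was 271, 339 and 317 without vavCre spleen replicates 1, 2 and 3. In Spic_KO it was 1972 and 297 without Spic_KO replicates 1 and 2, and 261, 355 and 316 without Spic_WT replicates 1, 2 and 3. In CreERT2 it was 5, 6, 11 and 6 without TAM_CreERT2 replicates 1, 2, 4 and 5, and 2 without adult WT replicate 1. Between the controls it was 44 without adult WT replicate 1, and 271, 320 and 279 without Spic_WT replicates 1, 2 and 3. Libraries with the same replicate number had correlations of deviations from -0.045 to 0.064 over 18 pairs and from -0.031 to 0.072 over 10. Those with different numbers had -0.100 to 0.086 over 36 pairs and -0.083 to 0.083 over 34. With so few libraries per group, these values cannot tell whether the numbers pair the samples. No block could be fitted in CreERT2, whose groups share 1 number. Depth limits Itgad in vavCre marrow and Spic_KO, at 0 to 13 reads, and Itgb7 and Itgam in the second table.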

Other observations

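Of 10 red pulp macrophage markers, 1 rose and 4 fell in vavCre spleen, and 3 rose and 4 fell in vavCre marrow. In Spic_KO none rose and 4 fell, and none passed in TAM_CreERT2. Of all genes, 5.52, 7.81, 3.95 and 0.144% were called in these comparisons, in that order. The median log2 change of the list was -0.51, -0.18, -1.01 and -0.25. Erythroid markers summed to 98588 to 142343 in vavCre spleen and 194704 to 287838 in WT spleen, and to 73864 to 110274 in vavCre marrow and 191108 to 283294 in WT marrow. Of 9 erythroid markers tested, 7 were called lower in vavCre spleen (list median -1.16) and 9 in vavCre marrow (-1.42), and none higher. The part of erythroid cells in the integrin results was not tested. B cell markers summed to 1133 to 3039 in vavCre spleen and 2662 to 5988 in WT spleen, with 1 of 7 called lower. Monocyte markers summed to 643 to 868 in vavCre spleen and 765 to 1185 in WT spleen, with none of 7 called. Eosinophil and mast cell markers summed to 580 to 648 in vavCre spleen and 3126 to 4351 in WT spleen. Of 6 of these tested, 1 was called lower (list median -2.57). Dendritic cell markers summed to 618 to 1401 in vavCre spleen and 763 to 1311 in WT spleen, with none of 8 called.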
